A study of Mus musculus with 4 samples.

Results

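The GIMAP genes (GTPases of immunity-associated proteins) form a family of guanine nucleotide-binding proteins found mainly in lymphocytes. All 8 listed genes, Gimap1, Gimap3, Gimap4, Gimap5, Gimap6, Gimap7, Gimap8 and Gimap9, were found by symbol among the 52636 genes of the deposited table. Of these, 7 reached the mean of 1 FPKM (fragments scaled by gene length and by library total) over the 4 libraries that was needed for a test. Gimap7 did not.

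Expression was measured by RNA sequencing in C57BL/6 mouse Th17 cells, helper T cells that make interleukin 17, with 2 libraries of the genotype PP2A WT and 2 of the genotype PP2A cKO, as labelled. In both groups naive cells were grown for 2 days with irradiated autologous antigen presenting cells (3 per T cell), anti-CD3, anti-CD28, TGFβ1, IL-6, anti-IL4 and anti-IFNγ, and were then given PMA and ionomycin for 4 h. PP2A is a serine/threonine phosphatase of several subunits. The labels name neither the subunit gene that was targeted, nor the Cre line, nor the age of the mice, and they do not say how the mice or cultures of a genotype were separated. The p-values therefore measure the spread between these libraries.

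GIMAP proteins carry a GTP-binding domain of the septin-like AIG1 type, and several sit on intracellular membranes such as those of the endoplasmic reticulum, lysosomes or lipid droplets. The family is known for its part in lymphocyte survival: mice or rats without Gimap5 lose peripheral T cells, and Gimap1 is needed for mature T and B cells. In these animals the genes lie side by side in a single cluster.

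The depth was 18517487 to 20387948 gene-assigned reads per library, as recovered from the FPKM values. Across the 10562 genes tested, log2(FPKM + 1) had a replicate difference with an SD of 0.21 within WT and 0.30 within cKO. Ppp2ca, the main catalytic subunit gene of PP2A, had 42.2 and 50.1 FPKM in WT and 41.8 and 34.5 in cKO (limma, adjusted p = 0.36), and Ppp2cb, Ppp2r1a and Ppp2r1b overlapped between the genotypes (adjusted p from 0.684 to 0.91). The genotype thus rests on the labels. The T cell genes Cd4 (104 to 128 FPKM) and Trac (261 to 303 FPKM) were abundant, while no gene of 8 B cell markers passed 0.637 FPKM and none of 5 NK cell markers passed 0.78 FPKM in any library. Of the myeloid markers, the summed level was 2.08 and 2.36 FPKM in WT and 1.85 and 1.504 FPKM in cKO, with Tyrobp at 0 in every library. The 6 endothelial markers summed to 1.66 and 2.10 FPKM in WT and 1.63 and 2.03 FPKM in cKO, nearly all of it from Pecam1, which leukocytes also express. Of the CD8 T cell markers, Cd8b1 had 7.06 to 9.84 FPKM and Cd8a 0.257 to 0.548 FPKM.

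The cluster spans chr6:48647234-48770851 (GRCm38), 123.6 kb, with 6 genes on the forward strand and Gimap6 and Gimap3 on the reverse strand. In order of position these are Gimap8 (start 48647234, end 48660875), Gimap9 (48676129, 48679114), Gimap4 (48684549, 48692060), Gimap6 (48701582, 48708225), Gimap7 (48718621, 48724636), Gimap1 (48739054, 48743795), Gimap5 (48746197, 48754210) and Gimap3 (48764464, 48770851). The shortest gap between members, 2.40 kb, separates Gimap1 from Gimap5.

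Promoter sequences are shown for the 4 genes whose level was highest in cKO relative to WT, and for Gimap1, the neighbour of Gimap5 whose level did not separate the genotypes. Each runs from 250 bases before to 50 bases after a RefSeq transcription start (GRCm38.p6), 5′ to 3′ on the strand of the gene. For Gimap4, Gimap1 and the Gimap8 window printed here, that start differs from the gene start given above. Capitals mark AGGAAG or its complement on the other strand, a form of the site bound by ETS transcription factors.
Gimap4 promoter, chr6:48684328-48684627, forward strand: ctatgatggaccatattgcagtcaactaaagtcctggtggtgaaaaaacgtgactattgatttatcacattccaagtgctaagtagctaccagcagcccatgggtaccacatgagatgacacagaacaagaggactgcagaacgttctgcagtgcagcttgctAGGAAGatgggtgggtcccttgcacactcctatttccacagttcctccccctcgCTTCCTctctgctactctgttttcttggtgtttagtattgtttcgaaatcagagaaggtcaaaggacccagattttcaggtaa
Gimap5 promoter, chr6:48745947-48746246, forward strand: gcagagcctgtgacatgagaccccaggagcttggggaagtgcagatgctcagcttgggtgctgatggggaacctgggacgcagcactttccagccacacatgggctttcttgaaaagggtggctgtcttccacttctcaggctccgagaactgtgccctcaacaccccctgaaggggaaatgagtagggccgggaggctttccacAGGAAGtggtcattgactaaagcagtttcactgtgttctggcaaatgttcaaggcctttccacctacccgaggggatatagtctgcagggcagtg
Gimap3 promoter, chr6:48770802-48771101, reverse strand: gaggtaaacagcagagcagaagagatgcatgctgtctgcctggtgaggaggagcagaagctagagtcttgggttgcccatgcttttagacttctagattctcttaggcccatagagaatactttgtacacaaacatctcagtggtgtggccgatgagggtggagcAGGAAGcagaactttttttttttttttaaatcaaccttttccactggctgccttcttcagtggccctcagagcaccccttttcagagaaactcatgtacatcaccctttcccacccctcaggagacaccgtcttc
Gimap8 promoter, second RefSeq start, chr6:48647111-48647410, forward strand: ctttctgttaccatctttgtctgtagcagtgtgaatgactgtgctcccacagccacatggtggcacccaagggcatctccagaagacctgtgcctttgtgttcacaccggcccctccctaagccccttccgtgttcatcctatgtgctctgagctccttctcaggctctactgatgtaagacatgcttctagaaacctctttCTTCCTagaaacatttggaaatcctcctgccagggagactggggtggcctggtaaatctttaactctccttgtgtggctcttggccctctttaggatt
Gimap1 promoter, chr6:48738797-48739096, forward strand: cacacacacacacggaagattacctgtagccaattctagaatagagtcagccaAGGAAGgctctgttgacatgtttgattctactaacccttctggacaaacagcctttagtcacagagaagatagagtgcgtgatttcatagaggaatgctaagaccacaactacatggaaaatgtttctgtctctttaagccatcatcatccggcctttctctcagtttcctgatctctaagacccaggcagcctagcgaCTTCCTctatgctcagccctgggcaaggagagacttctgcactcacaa

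AGGAAG, the only ETS form searched for, was found in the windows of Gimap4, Gimap5, Gimap3, Gimap8, Gimap1, Gimap9 and Gimap7. Of the 32851 RefSeq promoter windows of that length, 35.4% held it on either strand. In Gimap8 it was found at the second of the starts listed, whose window is printed. It was absent from the window of the first, which is the gene start given above, and from the Gimap6 window. Both of those windows hold CGGAAG or its complement on the other strand. That word differs in its first base and was not searched for. AGGAAG thus occurred in genes that separated the genotypes and in genes that did not. The RUNX core TGTGGT was found in the windows of Gimap4, Gimap7 and Gimap1 (16.8% of all windows). The forkhead core TAAACA was found in those of Gimap4 and Gimap3 (13.4%), and the AP-1 site TGANTCA in none (7.81%). Both strands were read for each, no matches in these windows overlapped, and a match describes the letters only.

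Gimap5 was the single member that passed the test. Its protein is a regulator of lymphocyte survival found on lysosomal membranes. Gimap5 had 15.1 and 15.7 FPKM in WT and 27.0 and 24.9 FPKM in cKO. Both cKO values lay above both WT values, and the counts behind them were 1227, 1245, 2275 and 2006 reads. The mean went from 15.4 ± 0.419 to 26.0 ± 1.45 FPKM (SD, n = 2), 1.68-fold, with a log2 fold change of 0.72 ± 0.09 (SE) on the log2(FPKM + 1) scale (limma, adjusted p = 0.0492). That call lies at the edge of the threshold: no member was called without either WT library, and Gimap5 then had adjusted p = 0.273 and 0.292, at log2 fold changes of 0.69 and 0.74. Over all genes tested, 0.814% were called higher in cKO and 0.256% lower, so 1 of 7 members has to be read against that background. No member was called lower by limma or voom, and none had a negative change at an unadjusted p under 0.05 (0 of 7), while 4 had a positive one; over all genes tested 10.3% and 9.56% did. In limma, Gimap3 and Gimap5 were called without cKO replicate 1, and 5 members were called without cKO replicate 2.

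Gimap4, which speeds the death of T cells once apoptosis has been set off, had the greatest difference of the family. It had 32.9 and 37.9 FPKM in WT and 71.3 and 58.7 FPKM in cKO, with 1184, 1331, 2661 and 2091 reads. The groups did not overlap, and the cKO libraries differed from each other by more than the WT libraries did. The mean was 35.4 ± 3.53 FPKM in WT and 65.0 ± 8.91 FPKM in cKO (SD, n = 2), 1.83 times as high, and the log2 fold change of 0.85 ± 0.14 missed the threshold (limma, adjusted p = 0.0635).

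Gimap3, the close paralogue of Gimap5 in the mouse, had 25.4 and 26.5 FPKM in WT and 39.1 and 39.4 FPKM in cKO. The replicates lay close together in each genotype and the groups were apart. The log2 fold change was 0.58 ± 0.09, a mean 1.51 times as high in cKO (limma, adjusted p = 0.0607). Of the 50-base words in the GENCODE transcripts of Gimap3, 7.52% also occur in those of Gimap5, against 4.53% the other way, and no other pair of members shared any. Only exact words of 50 bases were compared, so reads that are shorter or hold mismatches could be ambiguous over more of this pair. How ambiguous reads were counted is not given in the sources used here.

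Gimap8, which encodes the largest protein of the family with several GTP-binding domains, had 7.38 and 8.40 FPKM in WT and 13.3 and 11.9 FPKM in cKO. Again both cKO values were the higher ones. The mean was 7.89 ± 0.726 in WT and 12.6 ± 1.00 FPKM in cKO (SD, n = 2), with a log2 fold change of 0.61 ± 0.11 (limma, adjusted p = 0.0721).

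The levels of the other members were closer between the genotypes. Gimap6, whose protein binds the autophagy protein GABARAPL2, had 16.4 and 16.5 FPKM in WT and 20.6 and 17.3 FPKM in cKO. Both cKO values were above WT, though replicate 2 by little, and the log2 fold change was 0.19 with a 95% interval from -0.10 to 0.47 (limma, adjusted p = 0.401). Without cKO replicate 2 it was 0.31 and passed (limma, adjusted p = 0.0358), and without cKO replicate 1 it was 0.07. Gimap1 had 32.2 and 36.0 FPKM in WT and 36.1 and 34.1 FPKM in cKO. The groups overlapped, and the log2 fold change of 0.04 had a 95% interval from -0.22 to 0.30 (limma, adjusted p = 0.835). Gimap9 had 20.98 and 21.8 FPKM in WT and 24.3 and 20.6 FPKM in cKO, the cKO libraries lying on either side of the WT pair. Its log2 fold change was 0.06 with a 95% interval from -0.22 to 0.35 (limma, adjusted p = 0.769). The upper limits for Gimap1 and Gimap9 lie below the fitted changes of Gimap3, Gimap4, Gimap5 and Gimap8, but the differences between members were not tested in the fit.

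Gimap7, whose protein is known to act on the GTPase activity of family members, had a low level, below the mean of 1 FPKM needed for the test. It had 0.418 and 0.585 FPKM in WT (19 and 26 reads) and 0.529 and 0.444 FPKM in cKO (25 and 20 reads). The groups overlapped. In a fit without the filter its log2 fold change was -0.01 with a 95% interval from -0.26 to 0.24 (limma, adjusted p = 0.965).

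**Figure D1:**
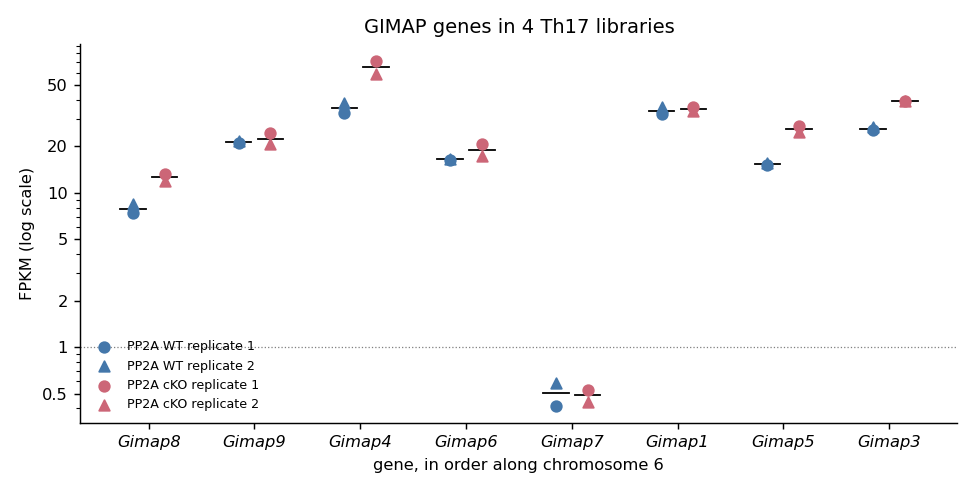
FPKM (y axis, log scale) of the 8 GIMAP genes in genomic order (x axis) in each library, with short black lines at the genotype means and a dotted line at 1 FPKM. For Gimap8, Gimap4, Gimap5 and Gimap3 both cKO libraries stand clear of both WT libraries, for Gimap6 they do so narrowly, and Gimap7 lies near 0.5 FPKM throughout.

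Both cKO libraries lay above both WT libraries in 5 of the 7 tested members and below them in none, against 27.2% above and 28.7% below among all genes tested. The median log2 fold change of the 7 was 0.58, beside a median of -0.00337 over all genes tested. By size of change, 98.4% of genes tested lay below Gimap4, 97.6% below Gimap5, 96.7% below Gimap8, 96.3% below Gimap3, 79.1% below Gimap6, 61.1% below Gimap9 and 57.3% below Gimap1. Summed over the 8 genes, the level was 151 and 163 FPKM in WT and 232 and 207 FPKM in cKO.

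limma voom on the recovered reads, which weights each value by the precision predicted at its read count, called Gimap4, Gimap5, Gimap8 and Gimap3 higher in cKO and no member lower. It called 2.52% of all genes higher and 3.33% lower. The log2 fold changes were 0.83, 0.71, 0.64 and 0.56 with adjusted p = 0.02, 0.0148, 0.0351 and 0.0255 in that order. Gimap6, Gimap9 and Gimap1 had 0.16, 0.03 and 0.01 (adjusted p from 0.465 to 0.981). Leaving out WT replicate 1 ended all of these voom calls, and without WT replicate 2 only Gimap4 was called (adjusted p = 0.0241), while without cKO replicate 1 the same number, 4, was called. The same 4 genes passed in limma on log2(FPKM + 1) after correction for transcript GC content, with adjusted p from 0.0242 to 0.0409, and with protein-coding genes alone, a setting chosen after seeing the data, with adjusted p from 0.0188 to 0.0348. With a pseudocount of 0.1 or 0.5, TPM, quantile scaling, a robust variance, no variance trend or a replicate block, none was called, and Gimap5 then had adjusted p from 0.0507 to 0.059.

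**Figure D2:**
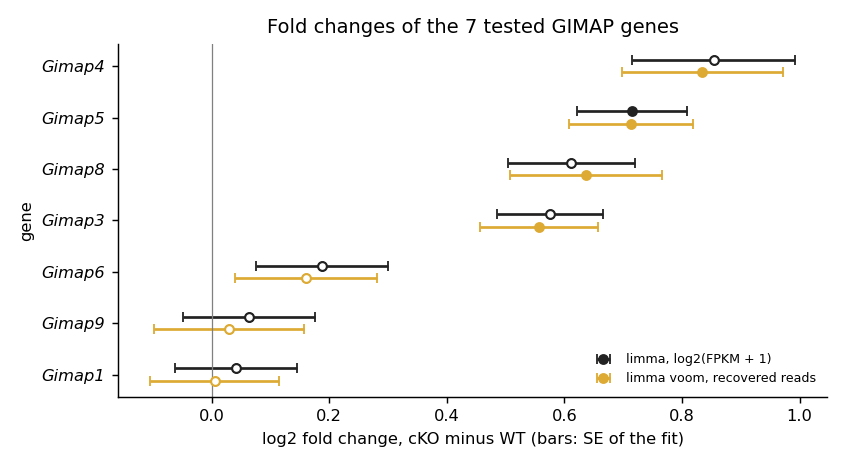
log2 fold change of cKO minus WT (x axis) with its SE for the 7 tested GIMAP genes (y axis), from limma on log2(FPKM + 1) and from limma voom on recovered reads; filled points have an adjusted p under 0.05. Gimap5 is filled in both, Gimap4, Gimap8 and Gimap3 in voom only, and Gimap6, Gimap9 and Gimap1 in neither.

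**Figure D3:**
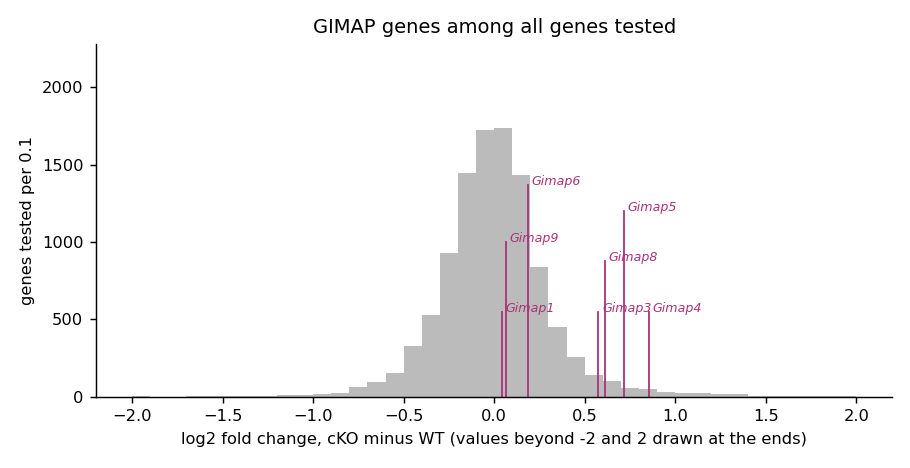
Histogram of the log2 fold change of cKO minus WT (x axis) over 10562 genes tested (y axis, genes per 0.1), with a line at each tested GIMAP gene; the height of a line only makes room for its name. Gimap3, Gimap8, Gimap5 and Gimap4 lie in the right tail from 0.58 to 0.85, and Gimap1 and Gimap9 lie near the peak.

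The order of the levels within the family differed between the genotypes. In WT it ran Gimap4, Gimap1, Gimap3, Gimap9, Gimap6, Gimap5, Gimap8, Gimap7, and in this order the libraries of Gimap4 and Gimap1 overlapped while every other adjacent pair was separated. In cKO it ran Gimap4, Gimap3, Gimap1, Gimap5, Gimap9, Gimap6, Gimap8, Gimap7, with no overlap between adjacent genes. In FPKM, a scale per gene length, the ratio of Gimap5 to its neighbour Gimap1 was 0.469 and 0.436 in WT and 0.749 and 0.730 in cKO. The ratio of Gimap4 to its neighbour Gimap9 was 1.57 and 1.74 in WT and 2.93 and 2.84 in cKO. The ratio of Gimap3 to Gimap5 moved the other way, with 1.68 and 1.69 in WT and 1.45 and 1.58 in cKO. Such ratios within a library carry no library scaling, and show unequal levels of neighbouring genes.

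Genes with a larger and a smaller difference were interspersed along the cluster. Gimap9 lies between Gimap8 and Gimap4, Gimap6 follows Gimap4, and Gimap1 precedes Gimap5. Of 39 other annotated genes within 250 kb of the cluster, 9 were tested and 0 were called by limma (0.05 adjusted; 1.07% of all genes tested were called in either direction), while voom called 1, Repin1. At an unadjusted p under 0.05 there were 2 of the 9, both lower, against 19.8% of all genes tested in either direction. The zinc finger gene Repin1 had 6.54 and 6.90 FPKM in WT and 3.47 and 4.76 FPKM in cKO, both lower in cKO (log2 fold change -0.61, limma, adjusted p = 0.111, voom 0.0442). Its voom call was lost without WT replicate 1 or 2 (adjusted p = 0.0813 and 0.193). The zinc finger gene Zfp775 had 3.97 and 3.66 FPKM in WT and 2.16 and 2.94 in cKO (-0.45, limma, adjusted p = 0.172). The pseudogene Gm7887 had 20.7 and 22.2 FPKM in WT and 29.9 and 22.9 in cKO (0.28, limma, adjusted p = 0.354). On the opposite flank Tmem176b had 17.1 and 16.8 FPKM in WT and 17.1 and 15.96 in cKO (limma, adjusted p = 0.85), and its neighbour Tmem176a had 8.71 and 9.80 FPKM in WT and 7.76 and 8.03 in cKO (-0.20, limma, adjusted p = 0.317).

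**Figure D4:**
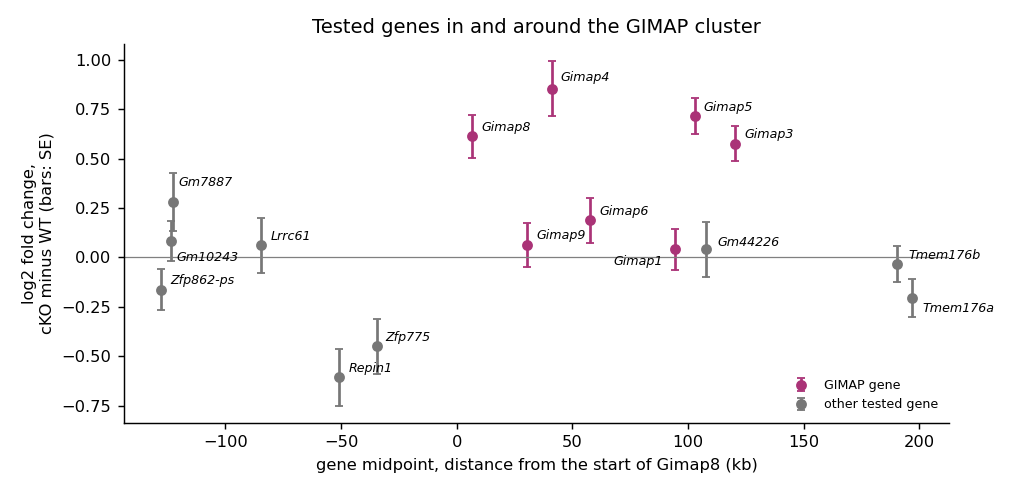
log2 fold change of cKO minus WT with its SE (y axis) against the distance of each tested gene from the start of Gimap8 in kb (x axis). GIMAP genes at 0.58 to 0.85 are interspersed with those at 0.04 to 0.19, and Repin1 and Zfp775 on the left flank lie at -0.61 and -0.45.

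Some members overlap other annotated genes in GENCODE M21, and the strand setting of the counting is not given. Gimap1 shares 36.0% of its exonic bases with Gimap1os, an antisense transcript that had 0.181 to 0.524 FPKM, so the pair cannot be told apart there without strand. The read-through gene Gm28053 shares 6.44% of the exonic bases of Gimap1, 3.69% of those of Gimap5 and 3.48% of those of Gimap7, and it had 0.249 to 0.313 FPKM.

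Genes linked to GIMAP functions were counted from lists. The BCL2 family sets the mitochondrial threshold for cell death, and GIMAP proteins have been tied to it. Of its 14 tested members 0 passed in limma (1.07% of all genes tested did), and 6 had an unadjusted p under 0.05 (19.8% of all genes tested). Of these 6, 4 were higher and 2 lower in cKO (9.56% and 10.3% of all genes tested). voom called 3 higher, Bbc3, Pmaip1 and Bcl2l1, and 2 lower, Bcl2l11 and Bid (5.85% of all genes in either direction). Fewer passed in each direction when WT replicate 1 was left out, and likewise when WT replicate 2 was left out. The most changed was Bbc3, which encodes the death-promoting protein PUMA, with 2.05 and 1.55 FPKM in WT and 6.05 and 10.4 FPKM in cKO (log2 fold change 1.69 ± 0.25, limma, adjusted p = 0.0552). Bcl2 itself, the survival gene, had 9.10 and 8.75 FPKM in WT and 10.9 and 10.3 FPKM in cKO (limma, adjusted p = 0.256). The median of the list was 0.09. The ATG8 family, the autophagosome proteins to which GABARAPL2 belongs, had 0 of 5 tested genes called by limma or voom, 0 at an unadjusted p under 0.05, and a median of 0.21. Its most changed gene, Gabarap, had 47.0 and 44.8 FPKM in WT and 58.1 and 50.0 in cKO (limma, adjusted p = 0.337).

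Of 17 tested genes of naive T cell quiescence, the resting state in which GIMAP genes are high, 3 rose in cKO and none fell (0.814% and 0.256% of all genes tested), with a median of 0.14. The transcription factor gene Klf6 rose from 33.3 and 27.8 to 83.8 and 70.2 FPKM (log2 fold change 1.31 ± 0.14, limma, adjusted p = 0.0375). The anti-proliferative gene Btg2 rose from 6.67 and 6.68 to 17.8 and 16.04 FPKM (1.22 ± 0.09, adjusted p = 0.0206 by limma), and Id3, an inhibitor of E proteins, from 18.0 and 17.4 to 32.6 and 29.1 FPKM (0.77 ± 0.10, adjusted p = 0.0492 by limma). All 3 are also induced by stimulation of T cells. Each missed the threshold without WT replicate 1 (limma, adjusted p = 0.0558, 0.0527 and 0.216 for Klf6, Btg2 and Id3) and without WT replicate 2 (0.129, 0.0662 and 0.317). Of the 17, 11 had a positive and 6 a negative log2 fold change. At an unadjusted p under 0.05, 7 were higher and 2 lower in cKO (9.56% and 10.3% of all genes tested).

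Another family of GTPases of immune cells, those induced by interferon, was set beside the GIMAP genes. Of 7 tested members 2 rose and none fell (0.814% and 0.256% of all genes tested). Irgm1 rose from 3.47 and 4.63 to 12.8 and 12.3 FPKM (1.44 ± 0.13, limma, adjusted p = 0.028), and Igtp from 17.0 and 15.3 to 34.9 and 35.5 FPKM (1.08 ± 0.10, limma, adjusted p = 0.0273). Irgm1 passed without any single library, whereas Igtp missed the threshold without WT replicate 1 or 2 (limma, adjusted p = 0.0736 and 0.14). Both changes exceed the fitted change of Gimap4, without a test of the difference. Of the 21 genes listed, 14 did not reach the mean of 1 FPKM and were not tested, and 13 of those had reads. Gbp7, a guanylate-binding protein gene among them, had 26 and 23 reads in WT and 131 and 126 reads in cKO. Tgtp2 (means of 0.663 FPKM in WT and 1.57 in cKO) and Gbp3 (0.808 and 1.39 FPKM) reached the filter only through their cKO level, so no median of the tested genes is given.

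The T cell markers differed among themselves. Summed over 10 genes they had 1387 and 1357 FPKM in WT and 1719 and 1806 FPKM in cKO, and 0 were called by limma. At an unadjusted p under 0.05, 5 were higher and 1 lower (9.56% and 10.3% of all genes tested). voom called 2 higher, Cd5 and Cd2 (2.52% of all genes tested), and 0 without WT replicate 1 or 2. Cd5, an inhibitory surface receptor, had the greatest difference, with 378 and 318 FPKM in WT and 561 and 675 in cKO (0.83, limma, adjusted p = 0.0734). Of the 10, 7 had a positive log2 fold change and 3 a negative one, Cd3e (-0.15), Trac (-0.10) and Cd247 (-0.34). In bulk samples a change in the number of cells of a type and a change in RNA per cell cannot be told apart. Of 15 cell cycle genes 1, Ccna2, was called lower by limma, against 0.256% of all genes tested. It fell by 0.79 on the log2 scale (limma, adjusted p = 0.0391). All 15 had a negative log2 fold change, with a median of -0.65. At an unadjusted p under 0.05 in limma, 14 of them were lower (10.3% of all genes tested). voom called 14 lower (3.33% of all genes), but 5 without WT replicate 1 and 2 without WT replicate 2. Ccna2 missed the threshold without WT replicate 1 or 2 (limma, adjusted p = 0.191 and 0.292). Their summed level was 933 and 968 FPKM in WT and 662 and 658 FPKM in cKO. The part of the T cell marker and cell cycle differences in the GIMAP levels was not tested.

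The genes outside the family whose profile over the 4 libraries lay nearest to the mean profile of the tested members were Psmb9, Ddit3, Hvcn1, Cd28 and Abcd3, among 6924 genes whose mean reached 5 FPKM. The measure was the Euclidean distance of centred log2(FPKM + 1) values, from 0.0349 for Psmb9 to 0.0564 for Abcd3. The mean centred profile of the members was -0.27 and -0.17 in WT and 0.29 and 0.14 in cKO. It averages members with log2 fold changes of 0.58 to 0.85 and members at 0.04 to 0.19. The genes near it, at 0.40 to 0.45, thus match the average and no single member. Psmb9, an immunoproteasome subunit gene, had 8.07 and 8.71 FPKM in WT and 12.3 and 10.7 in cKO. Cd28, the costimulatory receptor gene, had 94.5 and 103.6 FPKM in WT and 140.2 and 121.8 in cKO. With 4 libraries many genes can share a profile, and no p is given.

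**Figure D5:**
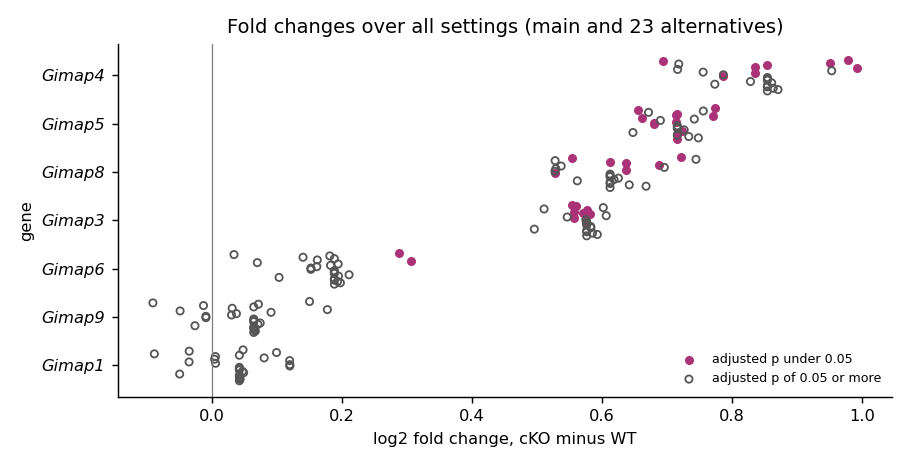
log2 fold change of cKO minus WT (x axis) of the 7 tested GIMAP genes (y axis) under the main setting and 23 alternatives, each a point; filled points have an adjusted p under 0.05. Gimap4, Gimap5, Gimap8 and Gimap3 stay positive in every setting, from 0.50 to 0.99, while Gimap9 and Gimap1 fall on both sides of 0.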

How the data were processed

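The deposited table gives FPKM per gene for 4 libraries, computed by the authors, with the gene length in bases. The submitters' processing notes list featureCounts 1.5.0-p3 and, as builds, GRCm38 and mm10. For the aligner, annotation, strand setting and FPKM tool no source used here gives a name. In each library every value above 0, multiplied by gene length and divided by what 1 read is worth in that library (found from its low values), was a whole number within 0.01 (100% of values), which gave the reads. Coordinates are the file's and matched GENCODE M21 for all 8 members.

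limma 3.58.1 in R 4.3.3 was fitted to log2(FPKM + 1), a pseudocount of 1 that understates changes of low genes, for genes whose mean reached 1 FPKM, with a variance trend, no block and Benjamini-Hochberg adjustment over all genes at 0.05, two-sided. A single-gene exact permutation test of 2 against 2 libraries reaches 0.333 at best. The procedure was also run on simulated reads, with the same replicate variability set for all genes and both genotypes. The data differ in this, so that run does not check calls near the threshold. Members and lists were chosen with earlier results of these data known, and the motifs with the promoters in view. Named genes were the members, up to 3 called genes per list or its most changed gene, the 3 most changed flanking genes, the 4 PP2A genes and the 5 nearest profiles. Bcl2, Bcl2l1, Bcl2l11, Bid, Pmaip1, Tmem176a, Tmem176b, Gbp3, Gbp7, Tgtp2, the markers Cd2, Cd4, Trac, Cd3e, Cd247, Tyrobp and Cd8a, and the overlapping Gimap1os and Gm28053 were added after their values were seen. Alternatives were other pseudocounts, filters, scalings, variance settings, GC correction, a replicate block, omission of each library and voom.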

Additional observations from a re-analysis of the deposited data

How the results depend on the processing

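The sign of Gimap3, Gimap4, Gimap5, Gimap6 and Gimap8 was positive under all 23 alternatives, 17 set at the outset and 6 added after seeing the data (protein-coding genes alone, voom with a replicate block, and voom without each library). Gimap5 was called in 11 of the 23, Gimap3 and Gimap4 in 8, Gimap8 in 7, Gimap6 in 2 and Gimap1 and Gimap9 in 0, and no member was called lower in any. The number of members called higher, 1 in the main setting, was 0 with a pseudocount of 0.1 or 0.5, no filter, TPM, quantile scaling, a robust variance, no variance trend or a replicate block, and 4 with GC correction, voom, voom with a replicate block, or protein-coding genes alone. It ran from 0 to 5 over the omissions of 1 library in limma and in voom, with 0 without WT replicate 1 or 2, 2 without cKO replicate 1 and 5 without cKO replicate 2 in limma. There the genotype left with 1 library is assumed to vary like the other. Without a filter 0 of 21807 genes were called by limma, with 3012 at an unadjusted p under 0.05. The median of the members, 0.58, was 0.50 as TPM and ran from 0.51 upward over the omissions. TPM moved the median of all genes to -0.09. Gimap1 turned to -0.0501 as TPM, -0.0356 without WT replicate 1 (up to 0.119 without WT replicate 2), and -0.0891 and -0.0355 in voom without WT replicate 1 and cKO replicate 1. Gimap9 turned to -0.0266 as TPM, -0.00977 with GC correction with or without a replicate block, -0.0494 without cKO replicate 1 (up to 0.177 without cKO replicate 2), and -0.0135 and -0.0913 in voom without WT replicate 1 and cKO replicate 1. The cause was not tested.

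Over all the lists 5 genes were called higher and 1 lower. These counts were 0 and 0 without a filter, 10 and 15 with GC correction, 12 and 16 in voom, 13 and 14 in voom with a replicate block, and 12 and 12 with protein-coding genes alone. The number lower was 3 with a filter at 5 FPKM, 2 as TPM, 3 with a replicate block and 7 with a replicate block and GC correction. Over the omissions the number higher ran from 1 to 23 in limma and from 5 to 28 in voom (21 without cKO replicate 1), and the number lower from 0 to 20 in limma and from 2 to 24 in voom (20 without cKO replicate 1). The low ends came without WT replicate 1 or 2 and the high ends without cKO replicate 2. Of the genes in or near the cluster that are no members, 0 were called in the main setting, 1 with GC correction, in voom and in voom with a replicate block, and 0 to 4 over the omissions. Over all genes, limma called 86 higher and 27 lower (76.1% higher), GC correction 253 and 257 (49.6%), voom 266 and 352 (43.0%), and a replicate block 154 and 73 (67.8%). Same-numbered libraries deviated with a correlation of -0.093 over genes, so the numbers do not show a pairing.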
